A study of Mus musculus with 9 samples.

Results

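The muscle atrophy ligases and the myostatin axis are 8 genes: Fbxo32 and Trim63, Mstn, Fst and Inhba, and the receptor genes Acvr1, Acvr2a and Acvr2b. Members were all probe sets whose single gene symbol in the platform annotation was one of these. A probe set is the group of short oligonucleotides by which an Affymetrix array reads a transcript. The rule found 10 probe sets of 6 genes among 22626 probe sets. Trim63 and Mstn had none and were not analysed here, so 1 of the 2 ligases and the ligand that gives the axis its name have no value below. Total RNA of 6 alveolar rhabdomyosarcomas of the mouse was hybridised, 1 array each, as was that of skeletal muscle from wild-type animals (3 arrays). Alveolar rhabdomyosarcoma is a soft-tissue cancer whose cells express skeletal muscle genes. The labels call the muscles controls and give neither the tumours' genotype, nor strain, age or treatment, nor which muscles were sampled, nor whether samples came from separate animals. The p-values therefore measure the spread between these samples, which may be technical in part. The comparison asks how the tumours differ from muscle.

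Myostatin and activin A, a dimer of the product of Inhba, are secreted proteins of the TGF-beta family that limit the growth of skeletal muscle. They bind the type II receptors encoded by Acvr2a and Acvr2b, which recruit a type I receptor that phosphorylates Smad2 and Smad3. Follistatin, the product of Fst, binds both ligands and keeps them from the receptors. Fbxo32 (atrogin-1) and Trim63 (MuRF1) encode muscle ubiquitin ligases that are switched on in wasting muscle by FoxO transcription factors, which Akt signalling holds out of the nucleus.

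The promoter table of RefSeq (GRCm38.p6) held 6 of the 8 members, and the 250 bases before the start site are shown here for the 3 genes whose signals the results turn on and that it holds. Each is printed 5′ to 3′ on the strand of its gene, and capitals mark a Smad box (CAGAC or its reverse complement).
Acvr2b (chr9:119401928-119402177, + strand): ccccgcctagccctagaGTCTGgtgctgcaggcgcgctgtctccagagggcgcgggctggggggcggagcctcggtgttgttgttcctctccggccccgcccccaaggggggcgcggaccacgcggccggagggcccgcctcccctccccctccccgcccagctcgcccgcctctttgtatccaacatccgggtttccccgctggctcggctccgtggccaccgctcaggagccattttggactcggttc
Acvr2a (chr2:48813859-48814108, + strand): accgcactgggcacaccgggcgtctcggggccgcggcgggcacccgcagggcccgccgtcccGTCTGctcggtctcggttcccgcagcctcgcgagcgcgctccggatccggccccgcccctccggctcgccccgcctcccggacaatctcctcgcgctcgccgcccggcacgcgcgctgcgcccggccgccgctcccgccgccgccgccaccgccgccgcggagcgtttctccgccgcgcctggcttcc
Inhba (chr13:16011601-16011850, + strand): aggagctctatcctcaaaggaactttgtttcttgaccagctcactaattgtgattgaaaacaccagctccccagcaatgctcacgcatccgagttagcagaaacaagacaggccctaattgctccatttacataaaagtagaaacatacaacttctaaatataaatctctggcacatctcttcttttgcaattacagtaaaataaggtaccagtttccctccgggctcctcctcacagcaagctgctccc

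The 2 type II receptor genes have promoters rich in G and C, at 72.8% for Acvr2b and 82.0% for Acvr2a, with 24 and 49 CpG pairs. The Inhba window holds 43.2% and 3 CpG pairs, against medians of 52.4% and 6 over all 32851 promoter windows. On both strands, 4 motifs were searched: the FoxO core GTAAACA, the Smad box CAGAC, the E-box CANNTG and the AP-1 site TGANTCA. They occur in 3.2%, 42.2%, 66.2% and 6.7% of all windows of this length. Acvr2b and Acvr2a hold 1 Smad box each and the Inhba window none of the 4. Among the 6 members only Trim63 holds the FoxO core, which begins 194 bases before its start within this stretch, where capitals mark the match.
Trim63: agtctgttctTGTTTACgacccccacg
A match is a run of letters and not a measured binding site, and Trim63 has no expression value here.

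Of the 10 member probe sets, Fst was higher and Acvr2b lower in the tumours, and 8 did not pass the test. Beside these 2 of 10, 15.4% of all 22626 probe sets were called (7.88% higher and 7.53% lower, limma with Benjamini-Hochberg adjustment). The members' share was thus near the background. At an unadjusted p under 0.05 there were 4 members of 10, and 27.3% of all probe sets. The median difference, tumour minus muscle on the scale of log2(signal + 16), was 0.09 over the members and 0.11 over all probe sets. Acvr2b alone, 1 member of 10, kept the 2 groups apart on every array; this holds for 19.8% of all probe sets.

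**Figure D1:**
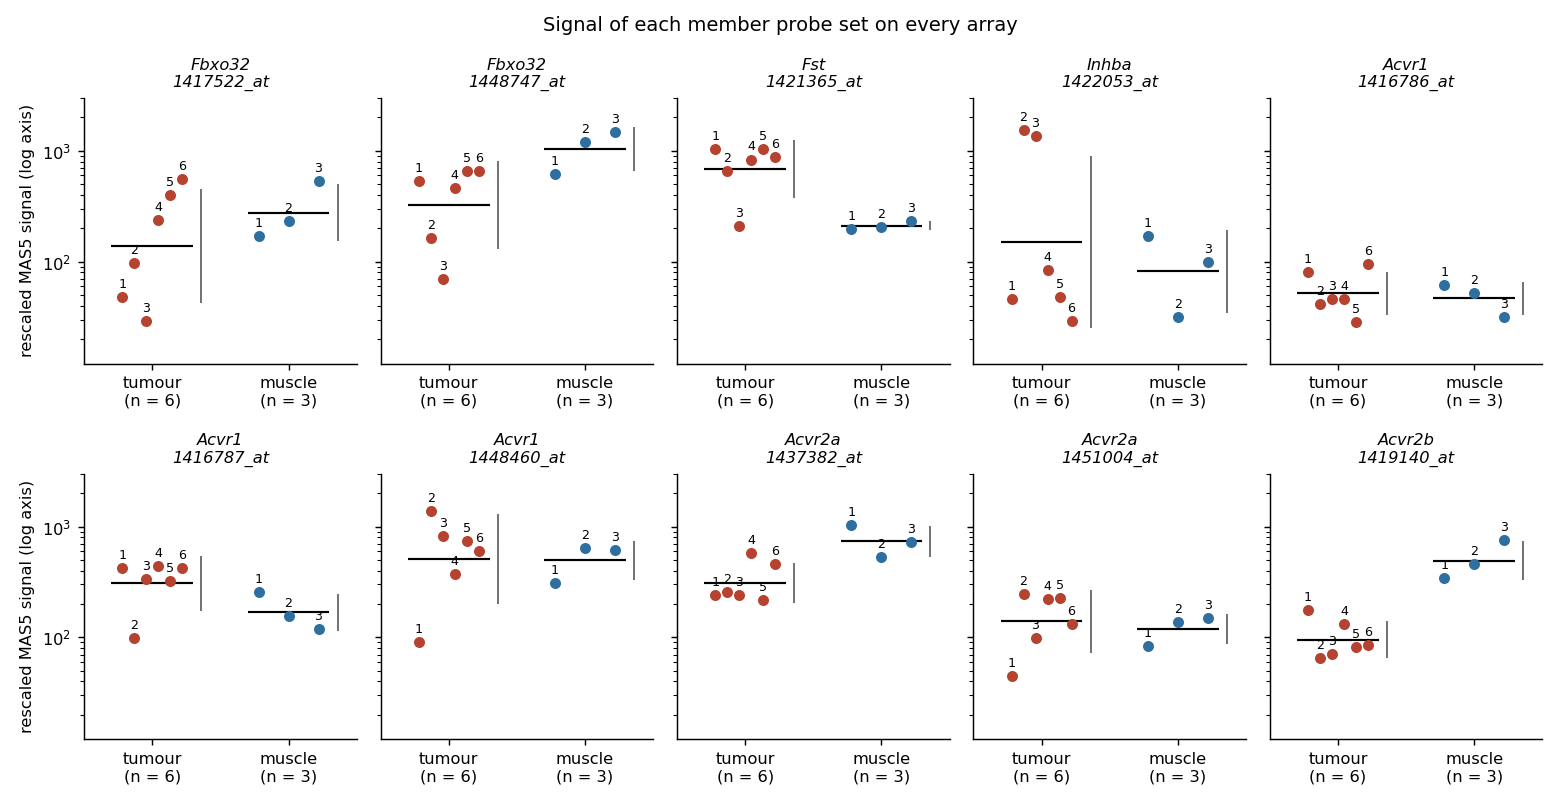
Rescaled MAS5 signal (arbitrary units, log axis) of the 10 member probe sets on each array, with 6 tumours in red and 3 muscles in blue, numbered as in the labels. Horizontal lines are means and vertical lines SDs, both taken on the log scale. Acvr2b is the 1 panel in which the groups do not overlap, and Inhba is high on tumours 2 and 3 only.

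The arrays differed in ways that touch these values. As deposited, the trimmed mean signal was 500.2 on 7 arrays but 294.3 on muscle 1 and 140.9 on muscle 3, so the signals below were multiplied to 1 trimmed mean, by factors of 1.6995 and 3.5493 for those 2 muscles. Without that step the median difference of all probe sets was 0.75 rather than 0.11, and every member's difference moved upward. Gapdh signal from the 3′ end over that from the 5′ end, which rises as RNA breaks down, stood at 1.68 on muscle 1, 57.2 on muscle 2, 33.0 on muscle 3 and 1.93 to 9.39 on the tumours. For Actb this measure did not set the muscles above the tumours, at 1.87, 4.05 and 4.35 on the muscles and 3.35 to 6.78 on the tumours. Tumour 1 resembled the other tumours least, with a mean correlation across probe sets of 0.762 against 0.826 to 0.874 for the rest. The summed signal of 14 muscle fibre markers was 264378 to 366048 on the muscles and 2616 to 163908 on the tumours, the highest on tumour 1. Of the 14, 12 were called lower. On tumour 1, Myh1 read 42065, above the muscles at 18805 to 26293, and Acta1 and Ttn lay within the range of the muscles. Of 10 macrophage markers 7 were called higher in the tumours, and of 4 adipocyte markers all 4 were lower. Of 6 epithelial markers the keratins Krt8 and Krt18 were higher, while Epcam, Cdh1, Krt5 and Krt14 were not called. In bulk samples like these, fewer cells of a type and less RNA per cell cannot be told apart.

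Among the genes of secreted proteins, Fst had a higher signal in the tumours on average. The Fst probe set (1421365_at) read 1028, 652, 208, 835, 1033 and 876 on tumours 1 to 6 and 195, 204 and 234 on muscles 1 to 3. The other 5 tumours lay above all muscles, and tumour 3 lay among them. Tumours averaged 772 ± 310 (SD, n = 6), muscles 211 ± 20.5 (SD, n = 3), a difference of 1.64 ± 0.46 (log2 ± SE), 3.12-fold on the offset scale, with an adjusted p of 0.027 (limma). The muscles were close together, with an SD of 0.13 in log2 units where the median of all probe sets was 0.38. As deposited, the muscles read 115, 204 and 66.1, no tumour lay among them, and the difference was 2.41 (adjusted p = 0.0021).

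The Fst call depended on which arrays were used. It was lost without tumour 4, tumour 5 or tumour 6 (adjusted p of 0.0506, 0.0598 and 0.0518), without muscle 1, muscle 2 or muscle 3 (0.0925, 0.101 and 0.0892), and without tumours 1 and 4 (0.0615). Without tumour 3 it was 1.97, with an adjusted p of 0.00191. In the percentile rank of the probe set among all probe sets of its own array, which no scaling of an array can move, Fst stood at 78.5% to 86.8% on the 5 high tumours, 50.4% on tumour 3 and 48.7% to 56.3% on the muscles. The difference of 25.1 points had an exact permutation p of 0.071 (two-sided, with 0.024 the smallest that 6 arrays against 3 can give).

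Inhba, which encodes the subunit of activin A, differed from tumour to tumour more than nearly any other gene. Its probe set (1422053_at) read 1550 on tumour 2 and 1365 on tumour 3, but 45.9, 84.5, 48.1 and 29.4 on tumours 1, 4, 5 and 6. The muscles read 172, 31.9 and 100. These 2 tumours lay far above all other arrays, and the other 4 lay within or just below the range of the muscles. The SD over the tumours was 2.35 in log2 units, above that of 99.7% of all probe sets, whose median was 0.71. The difference of 0.86 ± 1.09 (log2 ± SE, adjusted p = 0.7) has a 95% interval from -1.47 to 3.19, so the 2 groups' means are poorly fixed. In rank, Inhba stood at 89.5% and 89.2% on tumours 2 and 3, 12.6% to 23.5% on the other tumours and 16.2% to 44.9% on the muscles.

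The sum of fibroblast markers was also highest on the 2 arrays with a high Inhba signal, though single markers differed. The summed signal of 10 of 10 fibroblast markers was 71687 on tumour 2 and 44822 on tumour 3, against 11338 to 19180 on the other tumours and 34614 to 39752 on the muscles. None of the 10 was near 0 on those 2 tumours, the lowest being Pdgfrb at 521 on tumour 2 and Thy1 at 352 on tumour 3. Between the groups, 1 of the 10, Lum, was called, and it was lower in tumours. Dcn, the matrix proteoglycan decorin, read 12200 and 7560 on these tumours, 344 to 1519 on the others and 5757 to 6858 on the muscles. Pdgfra, a receptor of fibroblasts, was highest on tumour 6 at 3308, against 1894 and 1200 on tumours 2 and 3, and Thy1, Pdgfrb and Lum were highest on muscle 1. The largest parts of the sum on tumours 2 and 3 were Col1a2 (21068 and 18012) and Col3a1 (19240 and 11451). Tumour 3 lay below tumour 4 in Col1a1 (1856 against 2091) and in Postn (1222 against 1843). Tumour 2 lay below tumours 4 and 5 in Fap (934 against 1383 and 1709). Of the macrophage markers, Lyz2 and Ms4a7 were also highest on tumours 2 and 3, while the macrophage sum was highest on tumour 1. The part of fibroblasts or of macrophages in the Inhba signal was not tested.

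**Figure D2:**
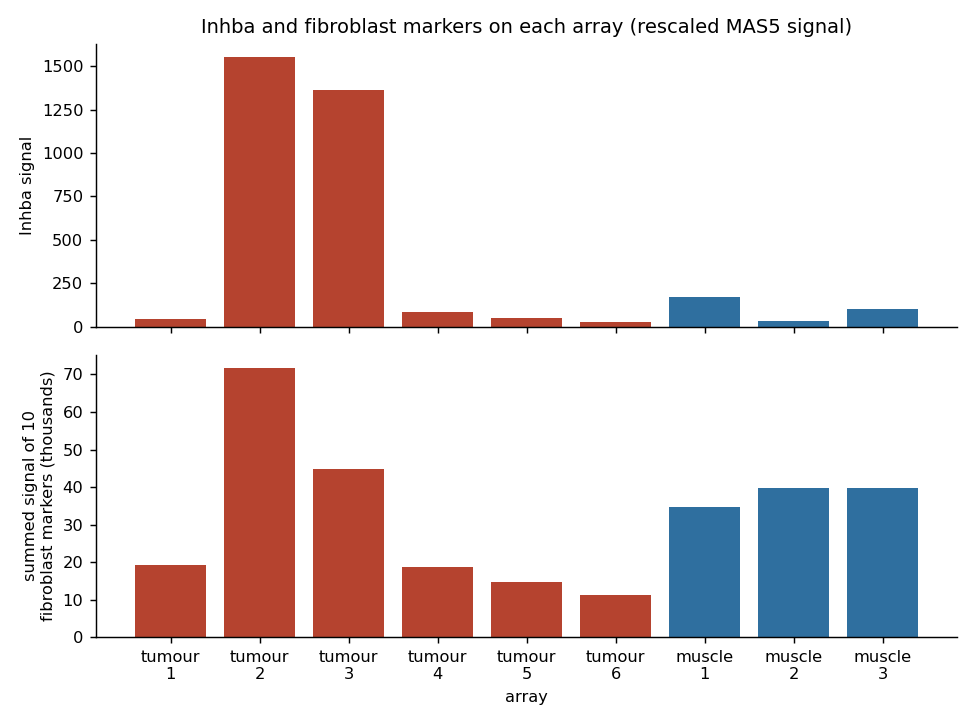
Rescaled MAS5 signal of Inhba (upper panel) and the summed signal of 10 fibroblast markers (lower panel) on each of 6 tumour arrays (red) and 3 muscle arrays (blue), 1 bar per array and both axes from 0. Tumours 2 and 3 have the highest bars in both panels, while the muscles are high in the lower panel only.

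The type II receptor gene Acvr2b was lower in every tumour than in any muscle. Its probe set (1419140_at) read 175, 65.3, 71.3, 131, 81.5 and 85.2 on tumours 1 to 6 and 340, 456 and 755 on the muscles. Tumours averaged 102 ± 42.8 (SD, n = 6), muscles 517 ± 214 (SD, n = 3), a difference of -2.18 ± 0.44 (log2 ± SE), 4.52-fold lower on the offset scale, with an adjusted p of 0.0041 (limma). The tumours' signals were alike, with an SD of 0.48 in log2 units, below the median of all probe sets. Each lay below the median signal of its array. Dim signals can be background, so this small spread need not mean like expression. Tumour 1, which had the most muscle fibre signal, had the highest Acvr2b signal of the tumours. Among the other tumours the orders differed. Tumour 2 had the most fibre signal of them (33933) but the lowest Acvr2b signal. Tumour 4 had the highest Acvr2b signal of them, with a fibre signal of 4261. The summed muscle fibre signal was 163908 on tumour 1, 2616 to 33933 on the other tumours and 264378 to 366048 on the muscles, apart between the groups like Acvr2b, and its part in the Acvr2b difference was not tested.

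The Acvr2b call rests on the rescaling of muscles 1 and 3, but the separation of the groups does not. As deposited, the muscles read 200, 456 and 213, still above the highest tumour at 175, and the difference of -1.35 had an adjusted p of 0.103. Without muscle 3 it was -1.87 (adjusted p = 0.0501). In rank within its array, Acvr2b stood at 24.2% to 36.7% on the tumours and 63.8% to 81.1% on the muscles, 41.7 points lower in tumours on average, with an exact permutation p of 0.024 (two-sided), the smallest possible here, and an adjusted p of 0.12 over all probe sets.

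Acvr2a, the other type II receptor gene, was read by 2 probe sets that did not move alike. The brighter (1437382_at) read 243, 254, 242, 581, 219 and 460 on the tumours and 1027, 532 and 720 on the muscles. Only tumour 4 reached into the range of the muscles. The difference was -1.20 ± 0.40 (log2 ± SE), with a 95% interval from -2.07 to -0.33 and an adjusted p of 0.06, which missed the threshold. It passed without tumour 4 (0.0314), without tumours 1 and 4 (0.0235), with median centring (0.0431), among probe sets above median brightness (0.0355) and with a weight per group (0.024). In rank within its array it stood at 46.0% to 75.0% on the tumours and 75.2% to 85.5% on the muscles, apart by a narrow margin, with an exact permutation p of 0.024 (two-sided) and 0.12 adjusted over all probe sets.

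The dimmer Acvr2a probe set (1451004_at) read 45.2 to 248 on the tumours, with a median of 177, and 83.6, 138 and 149 on the muscles, so that the groups overlapped. Its difference was 0.22 ± 0.52 (adjusted p = 0.86). The log2 ratio of the brighter to the dimmer probe set, a quantity formed within each array, averaged 1.04 ± 0.87 over the tumours (SD, n = 6) and 2.46 ± 0.82 over the muscles (SD, n = 3). This ratio differed by -1.42, with an exact permutation p of 0.048 (two-sided) and 0.17 after Benjamini-Hochberg adjustment over the 7 ratios computed, which were chosen after the values were seen. Which part of the transcript each probe set reads was not examined.

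Ratios between members were also formed within each array. The log2 ratio of Fst to Acvr2b was 1.36 to 3.43 on the tumours and -1.62 to -0.75 on the muscles. These genes were paired because one was called higher and the other lower, so the gap between the groups restates those calls and is given with no test. The ratio of Acvr2b to the brighter Acvr2a probe set averaged -1.54 ± 0.64 over the tumours (SD, n = 6) and -0.57 ± 0.86 over the muscles (SD, n = 3), with an exact permutation p of 0.095. A larger change of Acvr2b than of Acvr2a was therefore not shown.

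Acvr1 encodes a type I receptor that serves activins and bone morphogenetic proteins, and none of its 3 probe sets passed. The brightest (1448460_at) read 91.4, 1369, 822, 374, 745 and 605 on the tumours and 307, 646 and 609 on the muscles. Tumour 1 was lowest and tumour 2 highest of all 9 arrays. The difference was 0.06 ± 0.63 (95% interval from -1.29 to 1.41, adjusted p = 0.97), and it took the opposite sign, -0.10, under quantile normalization. A second probe set (1416787_at) put the tumours the other way round, with 421 on tumour 1 and 98.5 on tumour 2. Its tumours read 98.5 to 442 and its muscles 256, 156 and 118, a difference of 0.82 ± 0.48 (adjusted p = 0.31), which passed only without tumour 2 (0.046). The third (1416786_at) was dim throughout, at 28.5 to 95.5 on the tumours and 31.8 to 61.0 on the muscles, with a difference of 0.12 ± 0.43. The within-array ratios of the 3 probe sets had exact permutation p-values of 0.17, 0.98 and 0.55.

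Fbxo32, the ligase gene that could be measured, was lower in tumours on average in both of its probe sets, without passing the test. The brighter (1448747_at) read 532, 164, 69.5, 462, 654 and 657 on tumours 1 to 6 and 614, 1212 and 1476 on muscles 1 to 3. Tumours 2 and 3 were lowest, and tumours 5 and 6 lay just above muscle 1. Tumours averaged 423 ± 251 (SD, n = 6), muscles 1100 ± 442 (SD, n = 3), a difference of -1.59 ± 0.62 (log2 ± SE), with a 95% interval from -2.90 to -0.27 and an adjusted p of 0.1. It passed with a weight per group (0.0396) and on replicates 1 to 3 with the replicate number as a block (0.0308), while as deposited it was -0.74 (0.382).

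The dimmer Fbxo32 probe set (1417522_at) read 48.3, 97.6, 29.0, 238, 402 and 557 on the tumours and 169, 233 and 532 on the muscles. Its difference was -0.83 ± 0.75 (adjusted p = 0.55), and -0.03 as deposited. Tumour 3 was lowest in both probe sets, but tumour 1 was far apart in their ratio, at -3.09 against -0.93 to -0.23 on the other tumours and -2.30 to -1.44 on the muscles. The spread over the tumours was wide in both, with SDs of 1.49 and 1.22 in log2 units, above those of 97.1% and 91.3% of all probe sets.

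**Figure D3:**
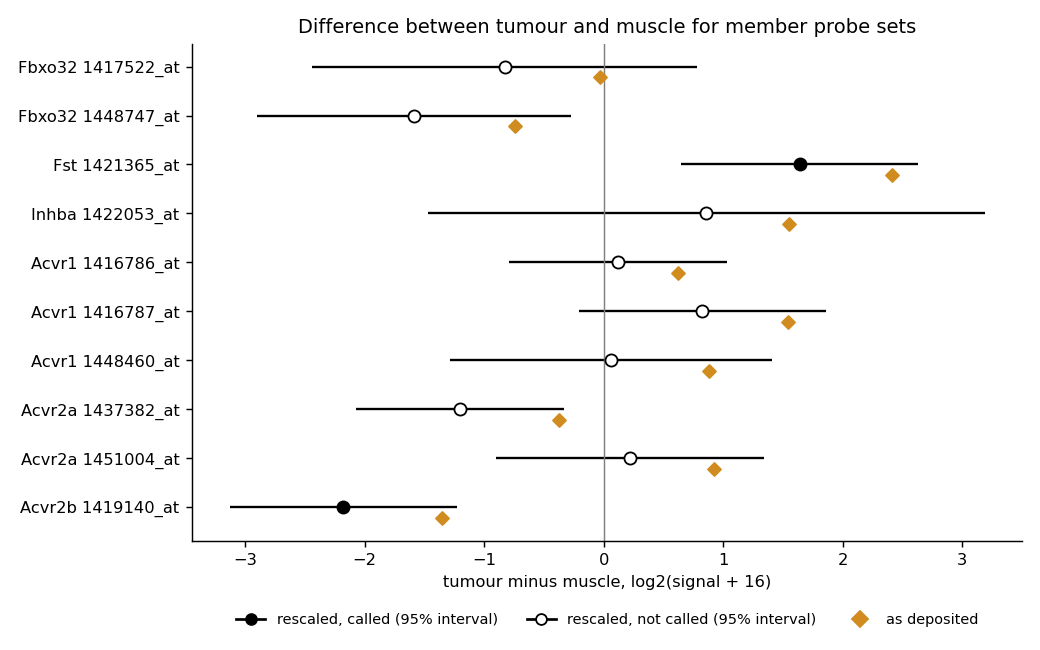
Tumour minus muscle on the scale of log2(signal + 16) for the 10 member probe sets after rescaling (circles with 95% intervals, filled where the adjusted p is under 0.05) and as deposited (diamonds, no interval drawn). Fst and Acvr2b are filled, and each diamond lies to the right of its circle.

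**Figure D4:**
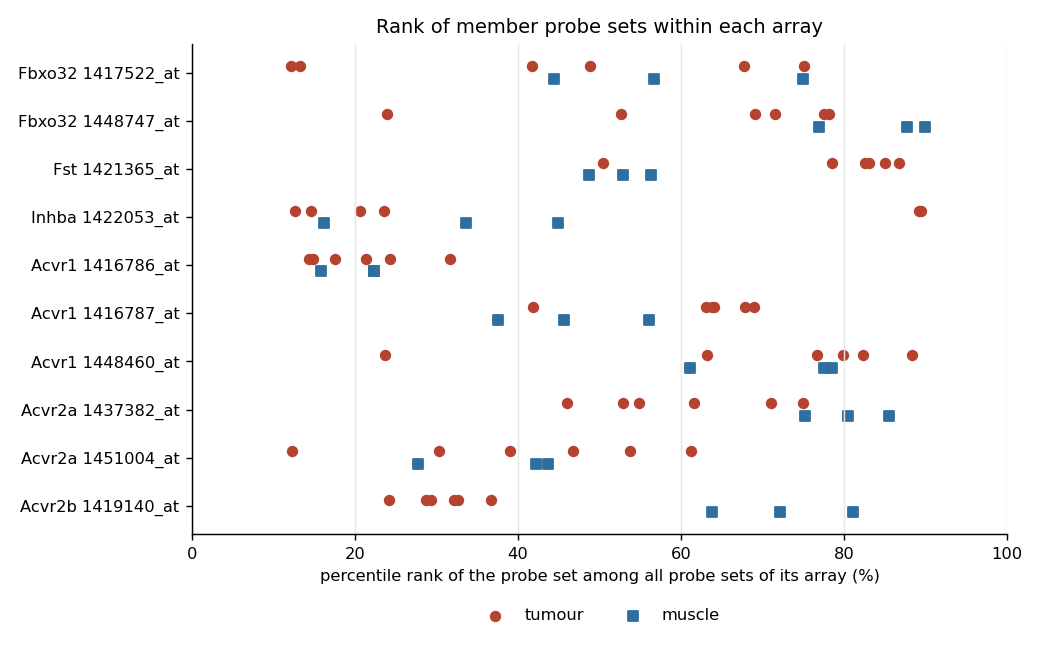
Percentile rank of each member probe set among all 22626 probe sets of its array, with 6 tumours as red circles and 3 muscles as blue squares. Ranks are to be compared across arrays within a row, not between rows. Acvr2b stood at 24.2% to 36.7% on tumours and 63.8% to 81.1% on muscles.

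For each gene's brightest probe set, the genes whose log2 signals followed it most closely over the 9 arrays were looked up among the 7225 or 7226 other genes brighter than the median. Acvr2b was followed by Adcy2, Cops7a and Mettl22, with Pearson r of 0.982, 0.979 and 0.977. For Inhba these were Itgbl1 (0.955), C1qtnf3 (0.926) and Polr3k (0.92), for Fst Pgm2 (0.948), Stc1 (0.943) and Prmt6 (0.941), and for Fbxo32 Pdgfb (0.95), Ccrl2 (0.92) and Ppt2 (0.919). Those of Acvr2a were led by Sec23a (0.959) and those of Acvr1 by Smarca2 (0.974). With 9 arrays that share a difference between groups, such values describe these arrays.

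The other genes of the pathways were taken from 9 lists, of whose 135 genes 114 were measured, each by its brightest probe set. Of the 114, 8 were higher and 21 lower in tumours, and 85 were not called, where 8.40% of all 12393 genes were higher and 8.77% lower in the same fit. Their median difference was -0.22, and 0.10 over all genes. Some genes counted as not called had another probe set that was called, higher for Fbxo21 and Ikbkb and lower for Tgfb2 and Map1lc3b. Without rescaling the counts were 16 higher and 11 lower.

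Among other ligases of muscle and of atrophy, 2 of 9 were lower and 7 not called, with a median of -0.29. Trim54 (MuRF3), a close relative of Trim63 found at the sarcomere, read 1414 on tumour 1, 50.5 to 464 on the other tumours and 2790, 2695 and 4151 on the muscles, a difference of -3.45 ± 0.68 (adjusted p = 0.0033). Fbxo31, an F-box gene like Fbxo32, differed by -2.24 ± 0.51, a call lost as deposited (0.0937) and without muscle 3 (0.0653). Trim55, Fbxo30, Fbxo40 and Cblb were not analysed here. Of 9 genes of the SCF core and of ubiquitin conjugation, 3 were lower and 6 not called (median -0.58). Ube2b, a conjugating enzyme known from wasting muscle, read 491 to 1566 on the tumours and 7894, 9965 and 12086 on the muscles, without overlap, at -3.28 ± 0.40 (adjusted p = 0.00011). The conjugating enzyme genes Ube2d1 and Ube2g1 differed by -2.52 ± 0.37 and -1.71 ± 0.45, the latter call lost as deposited (0.287), without muscle 2 (0.0851) and without muscle 3 (0.105).

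Of 19 genes that control the ligases, 2 were higher, 6 lower and 11 not called, with a median of 0.12. Without rescaling 3 were higher and 1 lower. Klf15, a transcription factor induced by glucocorticoids, read 11.3 to 71.5 on the tumours and 385, 880 and 1220 on the muscles. It showed the deepest difference of the list at -4.09 ± 0.52 (adjusted p = 0.00016). Foxo1, a FoxO factor that activates Fbxo32 and Trim63 in muscle, read 848 to 5145 on the tumours and 437, 916 and 593 on the muscles, a difference of 1.61 ± 0.52 whose adjusted p of 0.049 was lost under 17 of 24 alternatives. Of its 4 probe sets 1 was called, and their mean differed by 0.84 (adjusted p = 0.154, limma). Which part of the Foxo1 transcript each probe set reads was not examined. Foxo3, a relative of Foxo1, differed by 0.62 ± 0.40 and was not called. Tnfrsf12a, the receptor of the cytokine TWEAK, was higher by 1.49 ± 0.40, a call lost with median centring (0.0803) and without muscle 1 (0.0605) or muscle 3 (0.136).

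The other genes called lower in this list were Irs1, Ppargc1a, Igf1, Nr3c1 and Akt2. Irs1, an adaptor of the insulin receptor, differed by -2.31 ± 0.54 and Ppargc1a, a coactivator of mitochondrial genes, by -1.82 ± 0.45. Both calls were lost as deposited (0.0826 and 0.24), without muscle 2 (0.0506 and 0.0826) and without muscle 3 (0.0584 and 0.0686). Igf1, the growth factor itself, differed by -1.61 ± 0.49, with an adjusted p of 0.039 that was lost under 14 of 24 alternatives, among them without any 1 of the muscles (0.0937 to 0.144) and without tumour 4, 5 or 6 (0.0548 to 0.0725). Of its 3 probe sets 1 was called. Of the Akt kinase genes, Akt1 differed by 0.53 ± 0.33 and was not called. Akt2 read 640 to 1367 on the tumours and 1429, 2387 and 2629 on the muscles, at -1.12 ± 0.36 (adjusted p = 0.048). Nr3c1, the glucocorticoid receptor gene, differed by -1.77 ± 0.52 (adjusted p = 0.034). Of its 3 probe sets 1 was called, and their mean differed by -0.82 (0.0712). Akt2 and Nr3c1 were added after their values were seen. The Akt2 call was lost under 14 of 24 alternatives, among them without tumour 2, 3, 4 or 5 (0.0619 to 0.0918) and without muscle 2 or 3 (0.194 and 0.242). That of Nr3c1 was lost under 10, among them without tumour 4 (0.0547), muscle 2 (0.157) or muscle 3 (0.157).

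Other genes that are induced with the ligases in atrophy went both ways, with 2 of 16 higher, 3 lower and 11 not called (median -0.23). Pdk4, an inhibitor of pyruvate dehydrogenase, read 77.4 to 334 on the tumours and 5239, 5062 and 4829 on the muscles, at -4.79 ± 0.42 (adjusted p = 1.3e-05). Txnip, an inhibitor of thioredoxin, differed by -2.01 ± 0.40, a call lost as deposited (0.142) and with the mean of its probe sets (0.0609). Bnip3, a mitophagy receptor, differed by -1.45 ± 0.46, and its adjusted p of 0.047 was lost under 15 of 24 alternatives. The metallothionein genes Mt2 and Mt1 were higher, at 4.03 ± 0.57 and 2.72 ± 0.77, and highest on tumours 4 and 1. The Mt1 call was lost without muscle 2 (0.0888) or muscle 3 (0.146). Ctsl, the lysosomal protease cathepsin L, differed by 0.54 ± 0.49 and was not called.

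**Figure D5:**
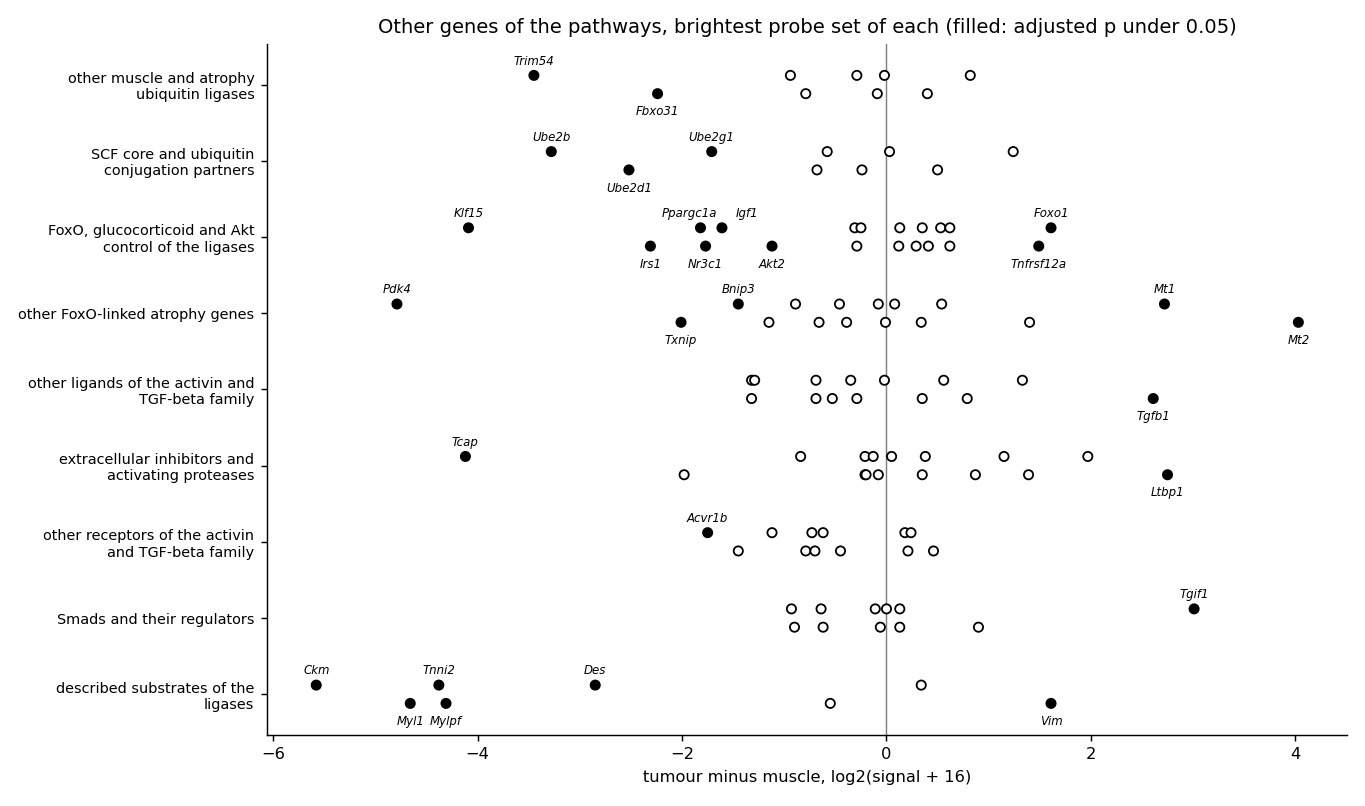
Tumour minus muscle on the scale of log2(signal + 16) for 114 genes of 9 lists, 1 point per gene from its brightest probe set, filled and named where the adjusted p is under 0.05; the small vertical offsets only separate points. Of the filled points 21 lie below 0 and 8 above.

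Of 14 other ligands of the family, each by its brightest probe set, Tgfb1 alone was called. It read 160 to 650 on the tumours and 87.8, 16.3 and 14.6 on the muscles, a difference of 2.61 ± 0.55 (adjusted p = 0.0052). Macrophages are a known source of this cytokine. Of 10 macrophage markers 7 were called higher in tumours too. The summed signal of the 10 was 9712 to 32950 on tumours and 3246 to 4815 on muscles. Csf1r made up 26580 of the 32950 on tumour 1. Itgam went the other way (-1.01, not called), and Lyz2 and Mrc1 were not called. Tgfb1 was highest on tumour 4, where the sum was 15920. The part of macrophages in the Tgfb1 difference was not tested. Gdf11, the closest relative of Mstn, differed by -0.29 ± 0.56 and was not called, with the opposite sign as deposited (0.46). Inhbb, the other activin subunit gene, read 65.0 to 405 on the tumours and 1005, 390 and 277 on the muscles, at -1.32 ± 0.54 (adjusted p = 0.12), and was called only without tumour 1 (0.0467) or tumours 1 and 4 (0.0339).

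Of 16 genes listed as extracellular inhibitors, binding proteins and proteases, 1 was higher, 1 lower and 14 not called (median -0.02), and 4 were higher as deposited. Ltbp1, which anchors latent TGF-beta in the matrix, read 377 to 911 on the tumours and 92.0, 43.5 and 70.6 on the muscles, at 2.75 ± 0.40 (adjusted p = 0.00036). Tcap, the 1 called lower, is a Z-disc protein inside the fibre, not an extracellular one, and is described as a partner of myostatin. It read 134 to 1051 on the tumours and 5521, 3787 and 5438 on the muscles, at -4.12 ± 0.51. Fstl3, the relative of Fst, was dim, at up to 170 on the tumours and 15.4 to 26.9 on the muscles. The groups did not overlap, and the difference of 1.15 ± 0.48 was not called (adjusted p = 0.13), but was as deposited (0.0454) and without tumours 1 and 4 (0.0367). Furin, a protease that cleaves pro-forms of these ligands, differed by -0.21 ± 0.32 (0.62 as deposited).

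Of 12 other receptor genes, Acvr1b alone was called. It encodes ALK4, the type I receptor that pairs with the products of Acvr2a and Acvr2b for activin and myostatin. Acvr1b read 553, 247, 238, 398, 542 and 576 on the tumours and 1636, 1122 and 1443 on the muscles, without overlap, a difference of -1.75 ± 0.38 (adjusted p = 0.0059). The call was lost as deposited (-0.90, adjusted p = 0.234) and with the mean of its probe sets (0.0687). Tgfbr1, the alternative type I receptor gene, read 130 to 1781 on the tumours, lowest on tumour 1, and 992, 887 and 826 on the muscles, at -0.73 ± 0.57, with the opposite sign as deposited (0.11).

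Below the receptors, 1 of 11 genes of Smads and their regulators was higher and 10 were not called (median -0.06). The higher one was Tgif1, a corepressor of Smad2, which read 282 to 2416 on the tumours and 13.8, 169 and 103 on the muscles, at 3.01 ± 0.70. Its call was lost without muscle 1 (0.0644). Smad2 and Smad3, the signal carriers, differed by 0.13 ± 0.34 and -0.11 ± 0.49, and took the other sign under quantile normalization (0.00, rounded) and as deposited (0.62), respectively. Smad7, the inhibitory Smad, differed by -0.93 ± 0.48 and was not called.

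Of 8 genes whose products have been described as substrates of the ligases or stand beside them in the fibre, 5 were lower, 1 higher and 2 not called, with a median of -3.58. Ckm, the muscle creatine kinase, Myl1, a myosin light chain, and Tnni2, the fast troponin I, differed by -5.58 ± 0.94, -4.66 ± 1.03 and -4.38 ± 0.94. Muscle fibre markers as a whole were lower too (12 of 14), and Ckm, Tnni2 and Mylpf, 3 of the 5 genes called lower here, are among those markers. The part of fibre content in this list was not tested. Des, the muscle intermediate filament desmin, read 4036 on tumour 1 and 91.5 to 372 on the other tumours, against 4160, 1551 and 2590 on the muscles. Its difference of -2.85 ± 0.85 (adjusted p = 0.035) was lost under 14 of 24 alternatives, with 8 of the 9 single arrays left out among them. Vim, vimentin, was higher by 1.61 ± 0.39, a call lost without muscle 2 (0.0634) or muscle 3 (0.0706) and with median centring (0.0562). Myod1, a myogenic factor and described substrate of the Fbxo32 ligase, differed by 0.34 ± 0.45 and was not called.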

How the data were processed

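The deposited table gives each probe set's intensity on each array, on a linear scale, made with MAS5, per the submitters' processing notes (no version). Detection calls were not used here. How the authors scaled or filtered is not stated in those notes. Dim signals can therefore be background. Per the labels' protocols, Trizol and RNAeasy served for extraction, with biotin as label.

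Excluding 64 controls among 22690 probe sets, 20380 carried a single symbol, 691 several and 1555 none. Arrays were multiplied to the median of their means trimmed by 2% at each end. Each probe set's log2(signal + 16) was fitted in R 4.3.3 by limma 3.58.1 (lmFit, eBayes with an intensity trend, all 9 arrays, no covariates). They were adjusted over all 22626 probe sets by Benjamini-Hochberg and called at an adjusted p under 0.05. The number of arrays limits the precision. Exact tests used scipy 1.17.1, tables pandas 2.3.3 and numpy 2.4.6, and figures matplotlib 3.10.9, in Python 3.11.15. A gene on a list stands for its probe set of highest mean log2 value, and 2 of the 114 measured symbols were matched through the gene identifier. No 2 columns were identical.

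Members and lists were chosen with earlier results of these data known. The genes named were all members, up to 3 called genes per list and direction, and genes set with the lists; the lookup of genes like a member took 3 each among genes brighter than the median. Coordinates are those of the RefSeq promoter table, and no array coordinates were used. Alternatives were other scalings, offsets of 1 and 64, a brightness filter, 1 value per gene, other spreads, exact tests, replicate numbers as a block, and fits on fewer arrays.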

Additional observations from a re-analysis of the deposited data

Results flagged for a closer look

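Of 48 members and named genes, 8 had a tumour whose gap to the nearest other tumour took up more of the whole range of the 6 tumours, in log2 units, than Dixon's limit, which chance gives for about 1 in 20. Among the members, tumour 3 was low for Fst (0.708 of the range) and tumour 2 was low for the Acvr1 probe set 1416787_at (0.788). Tumour 3 was also low for Ctsl (0.691). Tumour 1 was high for Ckm (0.785), Tcap (0.66), Des (0.647) and Gdf11 (0.662) and low for Smad7 (0.627). The 3 muscles were too few for this check.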

How the results depend on the processing

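Over all probe sets, 1784 were called higher and 1704 lower. These counts were 3913 and 583 as deposited, 1073 and 1127 with 1 probe set per gene, 1022 and 1081 with a gene's mean, 796 and 1003 on replicates 1 to 3, and 785 to 2309 and 915 to 2060 leaving out 1 array. The rank-sum test and the permutation test of percentile ranks called 0 probe sets, 0 members and 0 list genes in either direction. With 6 arrays against 3 their smallest p is 0.024, and too few probe sets reached it for it to survive the adjustment. The member called lower was 0 as deposited, 2 with median centring, 2 without tumours 1 and 4, 3 with a weight per group and 0 to 2 leaving out 1 array. The member called higher was 0 on replicates 1 to 3, 0 without tumours 1 and 4 and 0 to 2 leaving out 1 array. List genes were 16 higher and 11 lower as deposited, 5 higher with median centring, 3 higher on replicates 1 to 3, and 4 to 12 higher and 12 to 22 lower leaving out 1 array, the fewest without muscle 3. The cause of these changes was not tested, apart from fewer arrays or probe sets where the setting has them.

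Signs turned only for differences that were not called. The Acvr1 probe set 1448460_at gave -0.10 with quantile normalization, -0.05 with median centring, -3.43 percentile points in rank, -0.03 on replicates 1 to 3 and -0.27 to 0.52 leaving out 1 array. Acvr1 1416786_at gave -0.08 to 0.26 and Acvr2a 1451004_at -0.01 to 0.49 leaving out 1 array, and the latter -0.15 on replicates 1 to 3. Gdf11 gave 0.46 as deposited and 0.18 on replicates 1 to 3, Furin 0.62, Tgfbr1 0.11 and Smad3 0.62 as deposited. Smad2 gave 0.00 with quantile normalization, -0.10 percentile points in rank and -0.02 to 0.33 leaving out 1 array, and Smad3 -0.38 to 0.02.

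Tumours and muscles share replicate numbers 1 to 3. The deviations of same-numbered arrays correlated at 0.21, 0.16 and -0.02, and those of differently numbered arrays at -0.20 to 0.06. The highest were those of numbers 1 and 2. All were low, and the numbers were not taken to pair the samples. With a replicate block on those 6 arrays, 1131 probe sets were called higher and 1301 lower, 0 members higher (Fst, adjusted p = 0.195) and 2 members lower (Acvr2b and the brighter Fbxo32 probe set), and 7 list genes higher and 17 lower. The counts given above for replicates 1 to 3 are without the block, and the turned differences had the same values in both fits.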
